A study of Mus musculus with 48 samples.

Results

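The genes described here handle zinc inside and across the membrane of the macrophage: the metallothionein genes Mt1 and Mt2, the zinc exporter gene Slc30a1 and the gene of the zinc-sensing transcription factor, Mtf1. They were chosen by symbol, and each symbol had 1 entry among the 51789 Ensembl gene identifiers of the deposited count table, so 4 of 51789 entries are members. Levels were read by 3′ mRNA sequencing in 48 libraries from mouse macrophages, which form 16 groups of 3 libraries. In every population, cells given AP-3-84, a compound named here only by its code, at 10 µM for 4 h were set against cells given the same amount of its solvent DMSO, called vehicle below.

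The 8 populations fall into peritoneal and bone marrow-derived cells, all of the C57BL/6 strain. Ascites macrophages were washed from the peritoneum 45 days after injection of ID8 ovarian tumour cells and carry the genotype label B6(Cg)-Tyrc-2J/J. Thio macrophages came from the peritoneum of intact B6 mice 4 days after 1 ml of 3% thioglycollate, a sterile irritant. Both were sorted with magnetic beads for F4/80, a macrophage surface protein. Bone marrow-derived macrophages were grown from marrow hematopoietic stem cells for 6 days in 10 ng/mL M-CSF. M0 cells carry no polarization label, M1 cells had a further 24 h with LPS at 100 ng/mL and IFN-γ at 50 ng/mL, and M2 cells the same time with IL-4 plus IL-13, each at 10 ng/mL. These 3 states were made from wild-type (WT) and from p53 KO mice, whose status comes from sample titles and the design text, since the genotype field calls these libraries wild-type too. Which part of Trp53, the p53 gene, was removed is not in the labels, nor is it stated whether the 3 libraries of a group came from separate animals or cultures, so p-values measure the spread between these libraries, which may be technical.

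Metallothioneins are small cysteine-rich proteins that bind zinc and copper and release zinc when their cysteines are oxidized. Free zinc activates MTF-1, the protein of Mtf1, which binds metal response elements and raises transcription of Mt1, Mt2 and Slc30a1. The exporter ZnT1, the protein of Slc30a1, sits in the plasma membrane and carries zinc out of the cell. Metallothionein genes also respond to glucocorticoids, oxidative stress and inflammatory signals, and macrophages move zinc in response to LPS.

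In the GENCODE M21 annotation of GRCm38, Mt1 (ENSMUSG00000031765) lies on the plus strand at chr8:94179082-94180327 and Mt2 (ENSMUSG00000031762) on the same strand at chr8:94172664-94173568. The pair is separated by 5513 bases with 0 annotated genes between them. Slc30a1 (ENSMUSG00000037434) lies at chr1:191906767-191913247 and Mtf1 (ENSMUSG00000028890) at chr4:124802104-124849800, both on the plus strand. Mt1 and Mt2 transcripts shared no run of 30 bases with each other. For Mt2, 4 of 574 such runs, 0.697%, also occur in another gene, and for Mt1, Slc30a1 and Mtf1 the count was 0. Mtf1 shares 721 bases with 1110065P20Rik on the opposite strand, which had 37 to 261 counts a library, and whether the counting used strand is not given in the sources used here, so reads from these overlapping genes may not be separable.

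The bases before the starts of Mt1, Mt2 and Slc30a1 are printed because metal response elements are the sequences through which MTF-1 acts on these genes. Each run holds the 250 bases before the RefSeq start, read 5′ to 3′ on the plus strand of GRCm38.p6, and capitals mark matches to the metal response element core, TGCACNC or TGCGCNC, on either strand. The windows are chr8:94178839-94179088 for Mt1, chr8:94172368-94172617 for Mt2 and chr1:191906531-191906780 for Slc30a1.
Mt1: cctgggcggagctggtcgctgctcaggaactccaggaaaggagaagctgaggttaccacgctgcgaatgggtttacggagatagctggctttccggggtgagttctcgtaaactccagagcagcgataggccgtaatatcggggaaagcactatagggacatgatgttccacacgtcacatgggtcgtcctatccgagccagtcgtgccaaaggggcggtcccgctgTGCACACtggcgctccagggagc
Mt2: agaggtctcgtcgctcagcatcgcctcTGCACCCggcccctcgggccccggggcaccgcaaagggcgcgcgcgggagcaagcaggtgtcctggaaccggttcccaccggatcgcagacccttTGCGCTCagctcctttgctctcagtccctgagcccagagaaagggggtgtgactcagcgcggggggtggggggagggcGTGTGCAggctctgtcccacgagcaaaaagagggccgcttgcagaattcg
Slc30a1: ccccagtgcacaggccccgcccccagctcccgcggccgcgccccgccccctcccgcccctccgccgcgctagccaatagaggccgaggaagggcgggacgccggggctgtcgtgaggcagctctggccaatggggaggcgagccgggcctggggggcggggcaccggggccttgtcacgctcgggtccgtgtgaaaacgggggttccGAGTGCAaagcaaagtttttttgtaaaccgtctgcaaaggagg

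Searched from 250 bases before to 50 bases after the start, both strands and overlaps included, the Mt2 window held 4 core matches, 3 of them before the start. The Mt1 window held 3, of which 1 lies before the start, and the Slc30a1 window held 2, of which 1 lies before the start. The Mtf1 window, chr4:124802299-124802548 before its start, held 0. Among 32851 RefSeq windows of the same length, 25.7% held at least 1 match, 7.11% at least 2, 1.97% at least 3 and 0.517% at least 4. The antioxidant response element core TGACNNNGC, the binding site of NRF2, occurred 1 time in each of the Mt2 and Slc30a1 windows and in 12.4% of all windows. The heat shock element core GAANNTTC occurred in none of the 4 windows and in 7.86% of all windows. Other annotated transcripts start 122 and 152 bases further downstream for Mt1, and 46 and 242 bases for Mt2. For these Mt1 starts and the later Mt2 start, the windows miss the bases directly before the start, where matches were not counted. A match is a description of letters and not of binding.

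The peritoneal libraries held 15532373 to 19417581 counts and the bone marrow-derived libraries 3081707 to 4645148. Values below are CPM (counts scaled to a common library size) after TMM scaling, an adjustment for library composition, made separately for peritoneal and for marrow-derived libraries, so levels are not compared between these sets. All 7 macrophage markers were detected in every group. The p53 target Cdkn1a ran from 555 to 1119 CPM over 18 WT libraries and from 34.1 to 292 CPM over 18 KO libraries, while Trp53 itself was low in both, at 4.79 to 13.2 and 2.70 to 9.11 CPM. Some libraries stand apart from others of their group. WT M2 vehicle library 1 had 3421 CPM of Saa3, an acute-phase gene, against 201 and 174, and 2310 CPM of the neutrophil gene S100a8 against 306 and 261. KO M2 vehicle library 3 had 1596 CPM of S100a8 against 170 and 307, and its 7 macrophage markers summed to 5894 CPM, the lowest of its group. KO M0 AP-3-84 libraries 1 and 2 had 2896 and 2067 CPM of the scavenger receptor gene Marco against 473 in library 3. The KO M0 vehicle libraries had 16.8, 17.5 and 14.3 CPM of Marco, so library 3 was also above every vehicle library. Values without these libraries are given beside the results they move. In these bulk samples, fewer cells of a type and less RNA per cell cannot be told apart.

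Mt1 was abundant in all groups, from 81.0 to 257 CPM in the 12 peritoneal libraries and from 218 to 939 CPM in the 36 bone marrow-derived libraries. Mt2 ranged more widely, from 3.02 to 21.8 CPM in the peritoneal and from 35.97 to 502 CPM in the marrow-derived set. The lowest Mt2 values, in ascites cells, still rested on 48 to 104 counts. Slc30a1 ranged from 31.4 to 93.7 CPM in peritoneal and from 17.0 to 90.1 CPM in marrow-derived cells, and Mtf1 from 18.3 to 27.3 and from 19.7 to 50.1 CPM. All 4 members passed the filter on low counts in both fits. The fewest counts of a member in a bone marrow-derived library were 62, for Mtf1.

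Ordered by mean, the 12 bone marrow-derived groups formed a continuum for Mt1, with neighbours overlapping at every step from WT M2 vehicle (615 ± 286 CPM, SD, n = 3) down to WT M1 vehicle (240 ± 28 CPM, SD, n = 3). For Mt2 the top was WT M0 vehicle at 231 ± 162 CPM (SD, n = 3), whose spread was wide, followed by WT M2 vehicle and by KO M1 vehicle at 209 ± 12 CPM (SD, n = 3). KO M1 vehicle was separated from the next group, KO M1 with AP-3-84, and the lowest groups were KO M2 with AP-3-84 and KO M0 vehicle, which overlapped. For Slc30a1 the order was different: KO M2 with AP-3-84 stood highest at 84.4 ± 6.2 CPM (SD, n = 3), above the WT M2 groups, and both KO M1 groups stood lowest, at 20.3 ± 2.8 CPM with AP-3-84 and 20.1 ± 5.2 CPM with vehicle (SD, n = 3), with all 6 libraries below every WT M0 library. For Mtf1 the 4 M1 groups were highest, from 37.8 to 43.4 CPM in the mean.

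**Figure D1:**
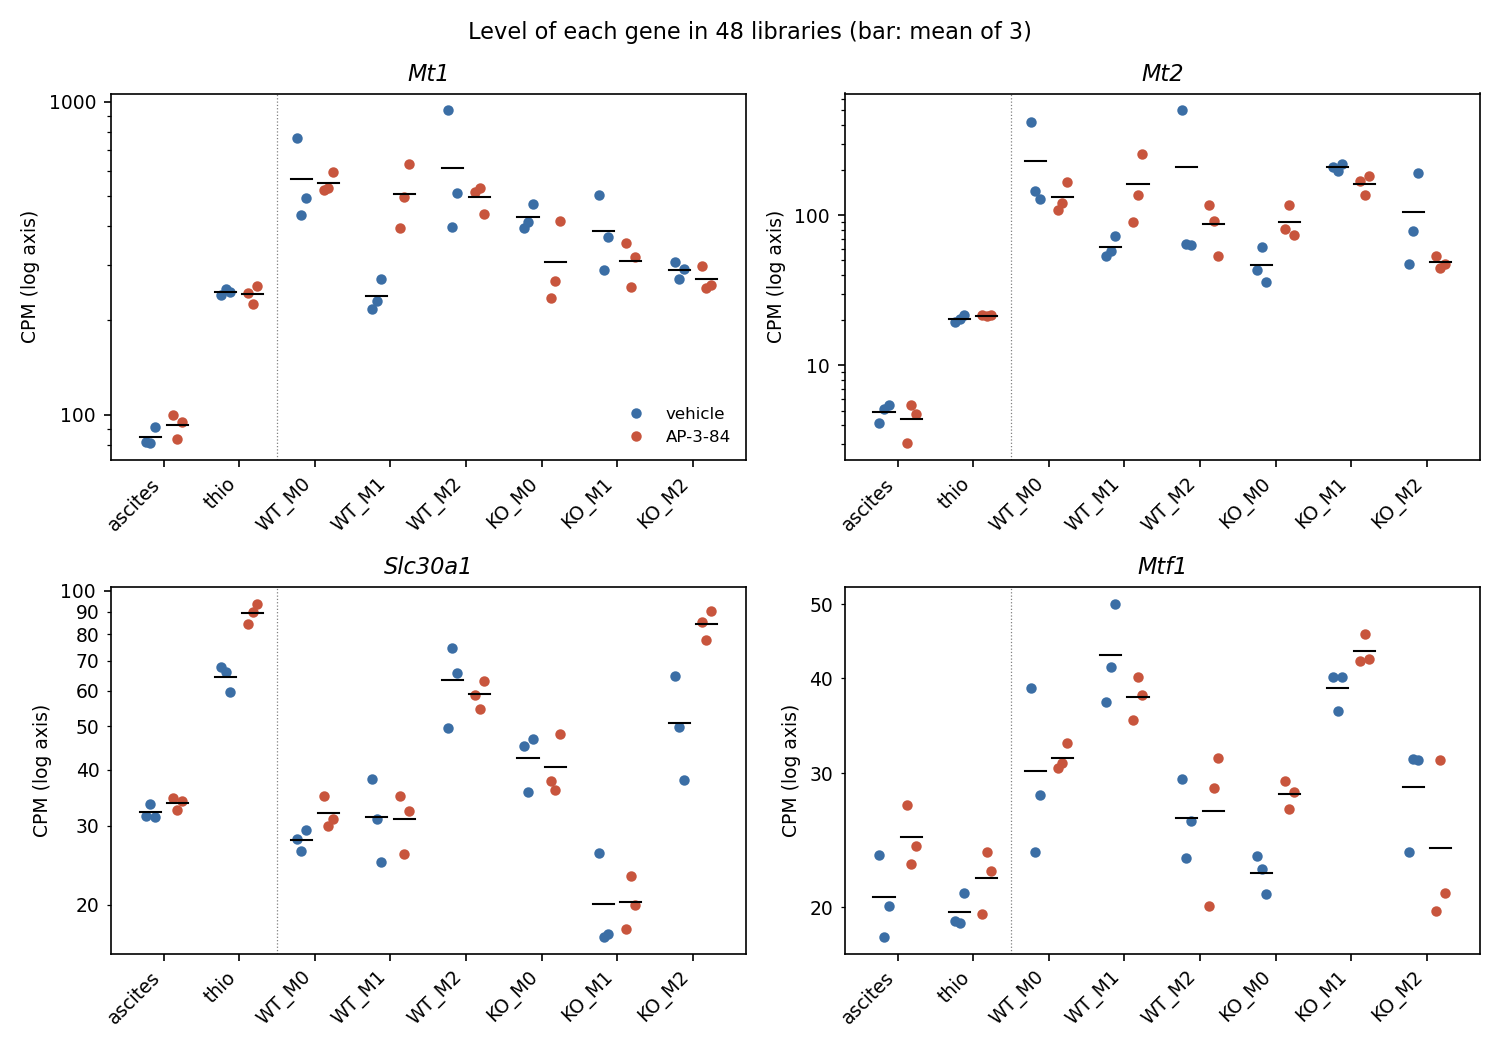
CPM on a log axis of Mt1, Mt2, Slc30a1 and Mtf1 in each of 48 libraries, by population, with vehicle in blue, AP-3-84 in red and a bar at the mean of 3 libraries; the dotted line divides peritoneal from bone marrow-derived populations, which were scaled separately. Ascites libraries lie below thio libraries for Mt1, Mt2 and Slc30a1, and single high Mt2 libraries stand out in the WT M0, WT M2 and KO M2 vehicle groups.

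Ascites macrophages held less metallothionein and exporter transcript than thio macrophages. Mt1 was at 81.7, 81.0 and 91.4 CPM in the ascites vehicle libraries and at 242, 252 and 246 CPM in the thio vehicle libraries. Mt2 was at 4.13, 5.12 and 5.48 CPM in ascites and at 19.5, 20.3 and 21.8 CPM in thio. Slc30a1 was at 31.5, 33.6 and 31.4 CPM in ascites and at 67.5, 65.8 and 59.7 CPM in thio. For each of these genes every ascites library lay below every thio library. Here and throughout, lack of overlap only describes the libraries, since the share of all genes without overlap was not computed.

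In edgeR's quasi-likelihood test with Benjamini-Hochberg adjustment, 3 of the 4 members were called lower in ascites, in a comparison in which 33.7% of 16955 genes were called in either direction and 13.4% lower. Mt2 was 4.17-fold lower (log2 fold change -2.06 ± 0.17 SE, adjusted p = 3.82e-08 by edgeR). Mt1 was 2.91-fold lower (log2 fold change -1.54 ± 0.076 SE, adjusted p = 3.37e-11 by edgeR) and Slc30a1 2.00-fold lower (log2 fold change -1.001 ± 0.078 SE, adjusted p = 1.37e-08 by edgeR). Mtf1, at 23.4, 18.3 and 20.1 CPM in ascites and 19.2, 19.1 and 20.9 CPM in thio, was not called (log2 fold change 0.06, edgeR adjusted p = 0.779), and the groups overlapped. Leaving out ascites vehicle library 1 turned the sign of this small Mtf1 value to -0.04. Markers of other cells moved with this comparison: 6 epithelial or tumour genes summed to 146 to 175 CPM in ascites vehicle and 1.46 to 3.70 CPM in thio vehicle libraries, 4 mesothelial genes to 66.02 to 76.2 and 1.28 to 1.64 CPM, and 6 neutrophil genes to 64.0 to 69.3 and 177 to 195 CPM. In thio vehicle, the epithelial genes Epcam and Cldn4, the mesothelial gene Msln and the neutrophil genes Ly6g and Ngp were at 0. The thio neutrophil sum came mostly from Mmp8, at 119, 113 and 130 CPM, and S100a8, at 61.7, 64.4 and 65.0 CPM. In ascites vehicle Ngp was at 0 as well, with Mmp8 at 32.7 to 35.4 CPM and S100a8 at 28.9 to 33.8 CPM. The part of these markers in the result was not tested.

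Between M0 and M1 cells, Mt2 differed in opposite directions in WT and p53 KO macrophages. The labels give the further 24 h for M1 and M2 cells and not for M0 cells, so time and signals cannot be told apart. In WT vehicle libraries Mt2 was at 418, 145 and 129 CPM in M0 and at 54.0, 58.0 and 73.0 CPM in M1. In KO vehicle libraries it was at 43.5, 61.3 and 35.97 CPM in M0 and at 210, 196 and 220 CPM in M1. Neither pair of groups overlapped: every WT M1 library was below every WT M0 library, and every KO M1 library above every KO M0 library. Mt2 fell in WT (log2 fold change -1.90 ± 0.62 SE, adjusted p = 0.0368 by edgeR) and rose in KO (log2 fold change 2.16 ± 0.63 SE, adjusted p = 0.0073 by edgeR).

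The difference between these changes was tested in a comparison added after the data had been seen. For Mt2 the M1 change was 4.06 log2 units higher in KO than in WT (SE 0.88, adjusted p = 0.00182 by edgeR), where 20.7% of 11779 genes were called. The WT fall alone was lost without WT M0 vehicle library 1 (log2 fold change -1.15, edgeR adjusted p = 0.25) and without WT M1 vehicle library 1, 2 or 3 (edgeR adjusted p 0.113, 0.112 and 0.079). It was also lost with only the groups compared (edgeR adjusted p = 0.0828) and with the replicate number as a block (edgeR adjusted p = 0.0521). The KO rise and the difference were called without any single library, the difference at 3.31 at its lowest. Markers moved with it: 6 neutrophil genes summed to 1554 to 2683 CPM in KO M1 vehicle and 746 to 956 CPM in WT M1 vehicle, and 7 macrophage genes to 16073 to 25150 and 43565 to 46541 CPM. Without S100a8 and S100a9, the neutrophil sums overlapped. They were 227, 617 and 357 CPM in KO M1 vehicle and 366, 400 and 321 CPM in WT M1 vehicle. Marco also differed between the M0 baselines, at 1171, 1963 and 2070 CPM in WT vehicle and 16.8, 17.5 and 14.3 CPM in KO vehicle. The part of these values in the result was not tested.

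Mt1 was called for the M1 change in WT cells and not in KO cells. Mt1 was at 765, 434 and 493 CPM in WT M0 vehicle and at 218, 231 and 272 CPM in WT M1 vehicle, without overlap. It fell with M1 polarization in WT cells (log2 fold change -1.23 ± 0.25 SE, adjusted p = 0.000868 by edgeR), so that 2 of the 4 members were called lower where 7.49% of genes were, and 15.5% in either direction. In KO cells Mt1 was at 395, 413 and 471 CPM in M0 and 503, 290 and 370 CPM in M1, which overlap, and it was not called. The difference between genotypes in the Mt1 change was 1.09 log2 units (SE 0.35, adjusted p = 0.0242 by edgeR), a call lost without KO M1 vehicle library 1 (edgeR adjusted p = 0.0828) and without WT M0 vehicle library 1 (edgeR adjusted p = 0.109).

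Slc30a1 fell with M1 polarization in KO cells and Mtf1 rose, which with Mt2 makes 3 of the 4 members called where 44.5% of genes were. Slc30a1 was at 45.1, 35.7 and 46.8 CPM in KO M0 vehicle and at 26.1, 17.0 and 17.2 CPM in KO M1 vehicle, without overlap (log2 fold change -1.09 ± 0.20 SE, adjusted p = 6.32e-05 by edgeR). In WT cells it was at 28.0, 26.3 and 29.4 CPM in M0 and 38.2, 31.0 and 24.9 CPM in M1, which overlap. The M1 change of Slc30a1 differed between genotypes by -1.25 log2 units, KO minus WT (SE 0.28, adjusted p = 0.00182 by edgeR). In KO M1 cells the exporter transcript was low where that of the zinc-binding protein Mt2 was high. The 7 macrophage markers summed to 32252 to 38950 CPM in KO M0 vehicle and 16073 to 25150 CPM in KO M1 vehicle. The 6 neutrophil genes summed to 633 to 778 and 1554 to 2683 CPM. In WT vehicle the macrophage sums were 30189 to 38378 CPM in M0 and 43565 to 46541 CPM in M1. The WT neutrophil sums were 373 to 683 and 746 to 956 CPM. The part of these markers in the M1 results was not tested.

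Mtf1 was at 23.3, 22.5 and 20.8 CPM in KO M0 vehicle and at 40.1, 36.2 and 40.2 CPM in KO M1 vehicle, with no overlap, and it rose (log2 fold change 0.81 ± 0.19 SE, adjusted p = 0.000798 by edgeR). In WT cells it was at 38.8, 23.7 and 28.1 CPM in M0 and at 37.3, 41.3 and 50.1 CPM in M1, and library 1 of M0 lay inside the M1 range. The WT value was not called (log2 fold change 0.51, edgeR adjusted p = 0.0561), but was without WT M0 vehicle library 1 (log2 fold change 0.73, edgeR adjusted p = 0.0127) and by DESeq2's Wald test (log2 fold change 0.50, adjusted p = 0.0453). No difference between genotypes in the M1 change of Mtf1 was called (0.30 log2 units, edgeR adjusted p = 0.45).

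With the M2 cytokines IL-4 and IL-13, Slc30a1 rose in WT macrophages. It was at 49.5, 74.8 and 65.5 CPM in WT M2 vehicle against 28.0, 26.3 and 29.4 CPM in WT M0 vehicle, with no overlap, a 2.27-fold rise (log2 fold change 1.18 ± 0.20 SE, adjusted p = 3.76e-05 by edgeR). It was the 1 member called of 4, where 12.7% of genes were called higher and 23.4% in either direction, and it was called without any single library. In KO cells, at 64.7, 49.8 and 37.9 CPM in M2 and 45.1, 35.7 and 46.8 CPM in M0, the groups overlapped and 0 of 4 members were called by edgeR, against 38% of genes, with 1, Mt1, at an unadjusted p under 0.05 (log2 fold change -0.56, edgeR adjusted p = 0.0726) and 0 called by DESeq2. The M2 change of Slc30a1 differed between genotypes by -0.93 log2 units, KO minus WT (SE 0.28, adjusted p = 0.0129 by edgeR, with 13.2% of genes called lower and 27.1% in either direction), in the other comparison added after the data had been seen. That call was lost without KO M2 vehicle library 3 (-0.75 log2 units, edgeR adjusted p = 0.0558).

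The metallothionein values in M2 cells depended on single libraries. Mt2 was at 502, 64.5 and 63.6 CPM in WT M2 vehicle, where library 1 is the library with high Saa3 and S100a8, and at 47.5, 78.2 and 192 CPM in KO M2 vehicle, where library 3 is the library with high S100a8. Each of these high values was more than 2 times the next value of its group. The M2 change of Mt2 was not called different between genotypes (1.31 log2 units, edgeR adjusted p = 0.264), but was without WT M2 vehicle library 1 (3.02 log2 units, edgeR adjusted p = 0.00213) and without both of these libraries (2.26 log2 units, edgeR adjusted p = 0.0102). That of Mt1 (-0.68 log2 units, edgeR adjusted p = 0.143) was called without WT M0 vehicle library 1 (-0.96 log2 units, edgeR adjusted p = 0.0473) or WT M2 vehicle library 2 (-0.91 log2 units, edgeR adjusted p = 0.0426). High Mt2 and S100a8 also coincided in WT M0 vehicle library 1, with 418 CPM of Mt2 and 278 CPM of S100a8 against 162 and 145 CPM of S100a8 in the other libraries. They did not coincide everywhere. KO M1 AP-3-84 library 1 had 2072 CPM of S100a8 against 472 and 465, with 168 CPM of Mt2 against 137 and 181. Over the 12 bone marrow-derived group means of log2 CPM, Mt2 had a Pearson r of 0.44 with S100a8. The part of S100a8 in the results was not tested.

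Between genotypes in the M0 vehicle groups, KO macrophages had less Mt2 and more Slc30a1 than WT macrophages. Mt2 was called lower (log2 fold change -2.30 ± 0.63 SE, adjusted p = 0.0067 by edgeR) and Slc30a1 higher (log2 fold change 0.61 ± 0.20 SE, adjusted p = 0.0174 by edgeR), 2 of 4 members where 33.2% of genes were called. In neither case did the libraries given above overlap. Mt2 was 4.93-fold lower by the fitted value, but without WT M0 vehicle library 1 the log2 fold change was -1.55 and the call was lost (edgeR adjusted p = 0.0776). The Slc30a1 call was lost without KO M0 vehicle library 1 or 3 (edgeR adjusted p 0.0553 and 0.0811) and without WT M0 vehicle library 2 (edgeR adjusted p = 0.0647). Mt1 (log2 fold change -0.40, edgeR adjusted p = 0.208) and Mtf1 (log2 fold change -0.44, edgeR adjusted p = 0.0673) were not called, although Mtf1 was without WT M0 vehicle library 2 (log2 fold change -0.60, edgeR adjusted p = 0.0257). The fit of all 48 libraries also called Mtf1 (log2 fold change -0.48, edgeR adjusted p = 0.0321). These M0 groups also differed in Marco, at 1171, 1963 and 2070 CPM in WT and 16.8, 17.5 and 14.3 CPM in KO. Saa3 was at 72.0, 421 and 628 CPM in WT and 55.0, 102 and 18.4 CPM in KO, which overlap. The part of these values in the results was not tested. Culture and genotype cannot be told apart, since no label ties WT to KO libraries.

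Between M1 genotypes the values went the other way for Mt2 and Slc30a1. Slc30a1 was called lower in KO M1 (log2 fold change -0.64 ± 0.20 SE, adjusted p = 0.0358 by edgeR), the 1 member of 4 called where 5.71% of genes were called lower and 11.6% in either direction, although the groups overlapped at 26.1 and 24.9 CPM. This call was lost without KO M1 vehicle library 2 or 3 (edgeR adjusted p 0.127 and 0.171) and without WT M1 vehicle library 1 or 2 (edgeR adjusted p 0.197 and 0.0839), and with total-count scaling (log2 fold change -0.38, edgeR adjusted p = 0.199). Mt2, at 196 to 220 CPM in KO M1 and 54.0 to 73.0 CPM in WT M1 without overlap, missed the threshold (log2 fold change 1.76, edgeR adjusted p = 0.0632), as did Mt1 (log2 fold change 0.69, edgeR adjusted p = 0.0641), also without overlap. Without KO M1 vehicle library 2, Mt1 was called (log2 fold change 0.88, edgeR adjusted p = 0.0224), and DESeq2's Wald test called both genes (adjusted p 0.0315 for Mt2 and 0.0426 for Mt1).

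In M2 cells, 1 of 4 members was called between genotypes, lower in KO as were 2.34% of genes, with 3.56% called in either direction. Mt1 was at 307, 272 and 291 CPM in KO M2 vehicle and at 939, 396 and 509 CPM in WT M2 vehicle, without overlap, and was called lower in KO (log2 fold change -1.08 ± 0.25 SE, adjusted p = 0.0119 by edgeR). The call was lost without WT M2 vehicle library 1 (log2 fold change -0.65, edgeR adjusted p = 0.117), without KO M2 vehicle library 2 or 3 (edgeR adjusted p 0.0644 and 0.0651) and without both M2 libraries that stand apart (edgeR adjusted p = 0.304). Mt2 had a log2 fold change of -0.99 (edgeR adjusted p = 0.375), which became 0.71 without WT M2 vehicle library 1. The 7 macrophage markers summed to 5894 to 18413 CPM in KO M2 vehicle and 24908 to 30922 CPM in WT M2 vehicle, and 6 neutrophil genes to 419 to 3354 and 496 to 4212 CPM, and their part in the Mt1 result was not tested.

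**Figure D2:**
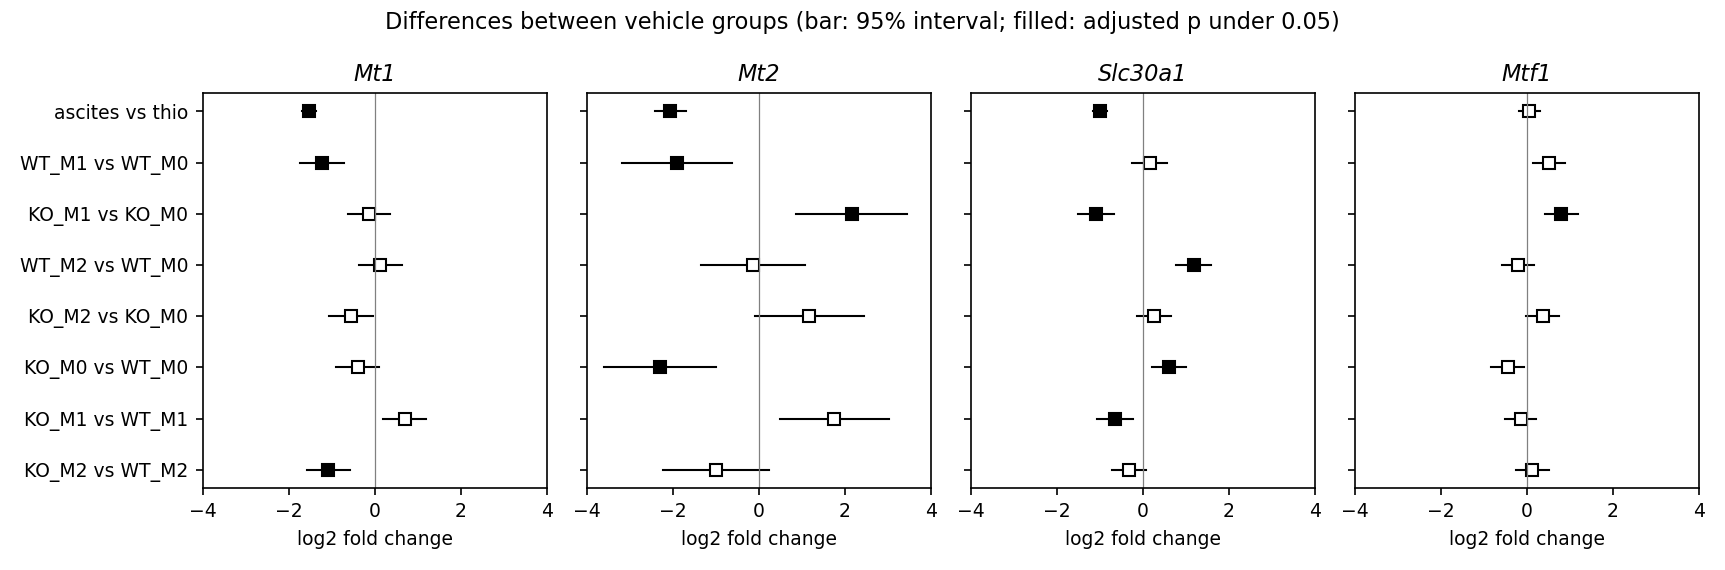
Fitted log2 fold change of each gene between vehicle groups, with its 95% interval, in 8 comparisons named as the first group against the second; filled squares had an edgeR adjusted p under 0.05. Mt2 moves from -1.90 in WT M1 against M0 to 2.16 in KO M1 against M0, and Slc30a1 from 1.18 in WT M2 against M0 to -1.09 in KO M1 against M0.

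AP-3-84 moved few of these genes. Across 8 populations, Slc30a1 in thio macrophages was the 1 call by edgeR among 32 pairs of gene and population, with 6 pairs at an unadjusted p under 0.05 and 3 called by DESeq2. Here and throughout, the share of all genes at an unadjusted p under 0.05 was not computed, and the share called by DESeq2 is not given. Such counts therefore only describe the genes listed. In thio cells Slc30a1 was at 67.5, 65.8 and 59.7 CPM with vehicle and at 84.6, 89.6 and 93.7 CPM with AP-3-84, so that every treated library lay above every vehicle library. The rise was 1.39-fold (log2 fold change 0.47 ± 0.076 SE, 95% interval 0.31 to 0.63, adjusted p = 0.0012 by edgeR), in a comparison with 2.51% of 16955 genes called higher and 4.32% in either direction. It was called without any single library but not when all 48 libraries shared 1 fit (edgeR adjusted p = 0.336). The 7 macrophage markers summed to 34284 to 34749 CPM with vehicle and 27578 to 32739 CPM with AP-3-84 in these cells, and the part of this in the result was not tested.

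In ascites macrophages Slc30a1 was at 31.5, 33.6 and 31.4 CPM with vehicle and 34.6, 32.5 and 34.1 CPM with AP-3-84, which overlap. There 0 of 4 members were called by edgeR, where 1.79% of genes were, and DESeq2 called 0. Mtf1 was the 1 member with an unadjusted p under 0.05, at 23.4, 18.3 and 20.1 CPM with vehicle and 27.3, 22.8 and 24.0 CPM with AP-3-84, which overlap (log2 fold change 0.26, edgeR adjusted p = 0.43). The interval of the Slc30a1 value (log2 fold change 0.07, 95% interval -0.10 to 0.24) lay below that in thio cells. The responses differed by -0.40 log2 units, ascites minus thio (95% interval -0.63 to -0.17), which did not pass after adjustment over all genes (edgeR adjusted p = 0.313), where 0.118% of genes were called.

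Mt1 and Mt2 were not called in either peritoneal population, and their intervals were narrow. For Mt1 the log2 fold change was 0.13 in ascites (95% interval -0.03 to 0.29, edgeR adjusted p = 0.595) and -0.02 in thio (95% interval -0.18 to 0.13, edgeR adjusted p = 0.917). For Mt2 it was -0.16 in ascites (95% interval -0.55 to 0.23, edgeR adjusted p = 0.829) and 0.06 in thio (95% interval -0.27 to 0.40, edgeR adjusted p = 0.897). In the same libraries Hspa1a, which encodes an inducible HSP70 chaperone, rose by 8.22 log2 units in ascites and 6.52 in thio (edgeR adjusted p = 3.73e-10 and 2.17e-09). The upper 95% bound of the Mt1 ratio was 1.22-fold in ascites and 1.10-fold in thio cells.

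In bone marrow-derived macrophages 0 of 4 members were called by edgeR in any of the 6 populations, where 0.144% of 11779 genes were called in WT M0, 0.017% in WT M1, 1.21% in WT M2, 20.7% in KO M0, 0% in KO M1 and 0.0509% in KO M2. Without KO M0 AP-3-84 libraries 1 and 2, which leaves 1 treated library assumed to vary like the other groups, the KO M0 share was 0.527%, and without library 3 it was 29.8%. Of these 24 pairs of gene and population, 4 had an unadjusted p under 0.05 and DESeq2 called 2. The nearest to a call were the metallothioneins in WT M1 and Slc30a1 in KO M2. Mt1 in WT M1 was at 218, 231 and 272 CPM with vehicle and at 396, 498 and 633 CPM with AP-3-84, with no overlap and a 2.12-fold difference (log2 fold change 1.08 ± 0.25 SE, 95% interval 0.58 to 1.59, adjusted p = 0.12 by edgeR). DESeq2's Wald test called it (adjusted p = 0.0144), as did edgeR on the 2 groups alone (adjusted p = 0.00539). Mt2 in the same cells was at 54.0, 58.0 and 73.0 CPM with vehicle and at 90.0, 136 and 257 CPM with AP-3-84, again with no overlap (log2 fold change 1.38 ± 0.61 SE, adjusted p = 0.606 by edgeR). Library 3 was the highest of the AP-3-84 libraries for both genes and also had the most S100a8, at 1082 CPM against 499 and 577, and the part of this was not tested.

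Slc30a1 in KO M2 was at 64.7, 49.8 and 37.9 CPM with vehicle and at 85.4, 77.7 and 90.1 CPM with AP-3-84. Every treated library lay above every vehicle library, a 1.66-fold difference (log2 fold change 0.73 ± 0.19 SE, 95% interval 0.34 to 1.12, adjusted p = 0.122 by edgeR). It was called by DESeq2's Wald test (adjusted p = 0.0359), in the fit of all 48 libraries (edgeR adjusted p = 0.0295) and without KO M2 vehicle library 1 (log2 fold change 0.94, edgeR adjusted p = 0.00977). Without KO M2 vehicle library 3, which stands apart and holds the lowest value, it was 0.56 (edgeR adjusted p = 0.778). The 7 macrophage markers summed to 18413, 9340 and 5894 CPM in vehicle libraries 1, 2 and 3, the order of their Slc30a1 values, and to 13836 to 19080 CPM with AP-3-84, and the part of this in the result was not tested. In WT M2, at 49.5, 74.8 and 65.5 CPM with vehicle and 58.7, 54.7 and 63.1 CPM with AP-3-84, the groups overlapped. The KO response exceeded the WT response by 0.84 log2 units (edgeR adjusted p = 0.107, 1.77% of genes called), a difference called without KO M2 vehicle library 1 (1.05 log2 units, edgeR adjusted p = 0.0187) or WT M2 vehicle library 1 (1.01 log2 units, edgeR adjusted p = 0.0481). Without KO M2 vehicle library 3 it was 0.66 log2 units (edgeR adjusted p = 0.342).

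In KO M0 cells the values of Mt1 and Mt2 had opposite signs, and neither was called. Mt2 was at 43.5, 61.3 and 35.97 CPM with vehicle and at 80.8, 118 and 73.9 CPM with AP-3-84, without overlap (log2 fold change 0.96, edgeR adjusted p = 0.287). Mt1 was at 395, 413 and 471 CPM with vehicle and at 235, 268 and 416 CPM with AP-3-84, where library 3 lay among the vehicle values (log2 fold change -0.48, edgeR adjusted p = 0.167). Mtf1 was at 23.3, 22.5 and 20.8 CPM with vehicle and 29.3, 26.9 and 28.3 CPM with AP-3-84, without overlap (log2 fold change 0.34, edgeR adjusted p = 0.201). Libraries 1 and 2, which stand apart by Marco, carried the low Mt1 values: without library 3 the Mt1 value was called (log2 fold change -0.76, edgeR adjusted p = 0.0296), and without libraries 1 and 2 it was -0.03. Library 3, kept in that refit, also had more Marco than every vehicle library.

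In the M2 populations the lower Mt2 mean with AP-3-84 rested on the vehicle libraries that stand apart. The WT M2 value was a log2 fold change of -1.26 (edgeR adjusted p = 0.418), and it was 0.45 without WT M2 vehicle library 1. The KO M2 value was -1.12 (edgeR adjusted p = 0.469) and -0.37 without KO M2 vehicle library 3. The genotypes' responses were not shown to differ for the metallothioneins: KO minus WT was 1.76 log2 units for Mt2 in M0 (edgeR adjusted p = 0.163, 17% of genes called, or 0.598% and 1.46 log2 units without KO M0 AP-3-84 libraries 1 and 2), and -1.41 for Mt1 and -1.74 for Mt2 in M1 (edgeR adjusted p 0.436 and 0.713, 0.00849% of genes called). Averaged over genotypes, 0 of 4 members had a response called different by edgeR in M1 from M0 (0.492% of genes called) or in M2 from M0 (1.87%), shares that were 0.0393% and 0.0787% without the same 2 libraries. DESeq2 called 0 in both, and 1 member in each had an unadjusted p under 0.05, Mt1 for M1 and Mt2 for M2.

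**Figure D3:**
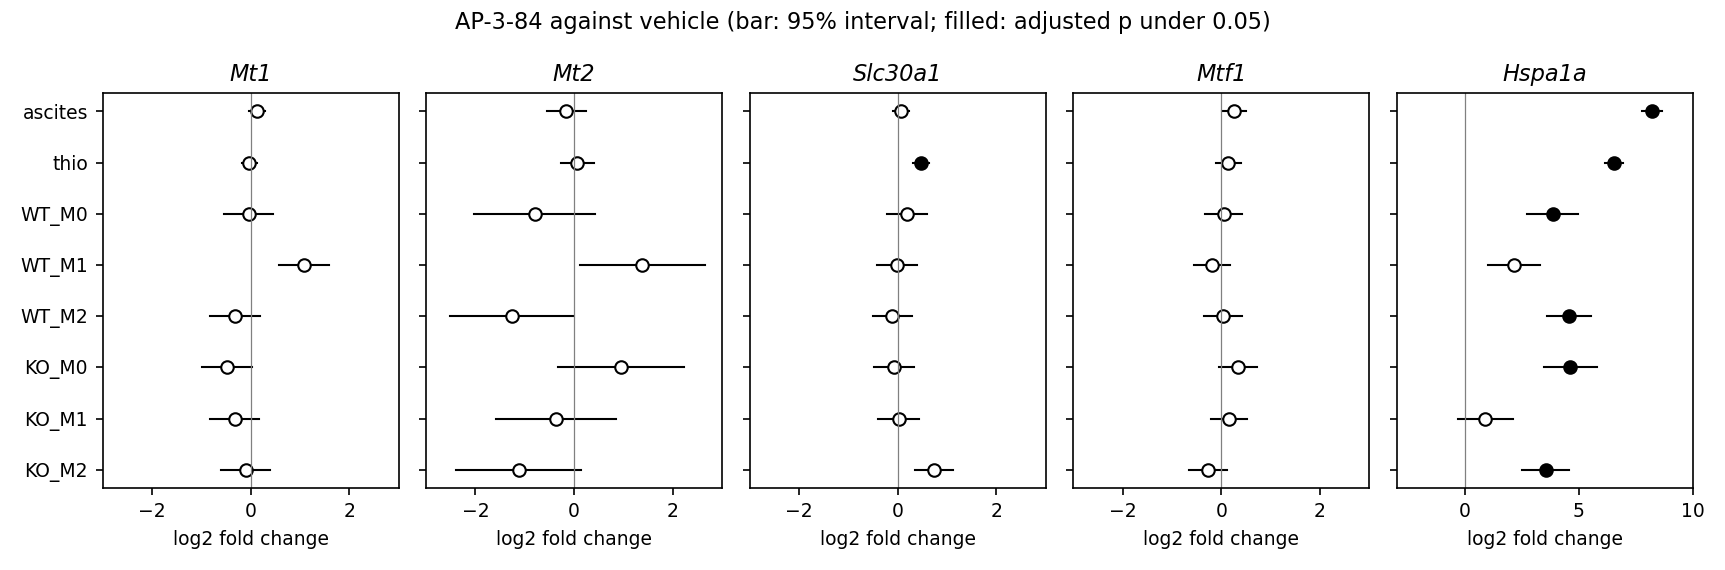
Fitted log2 fold change of AP-3-84 against vehicle, with its 95% interval, for the 4 genes and for Hspa1a in 8 populations; filled points had an edgeR adjusted p under 0.05, and the Hspa1a axis runs wider than the others. Among the 4 genes Slc30a1 in thio cells is the 1 filled point, while Hspa1a is filled in 6 populations.

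The amount of Mt2 relative to Mt1 gives a view that does not depend on library scaling. Read as Mt2 counts per 100 Mt1 counts, the value was 3.03 to 9.40 in the 12 peritoneal libraries and 7.63 to 67.7 in the 36 bone marrow-derived libraries. Within the peritoneum it was 3.03 to 6.52 in the 6 ascites libraries and 8.04 to 9.40 in the 6 thio libraries, which did not overlap. In the 6 KO M1 libraries it was 41.8 to 67.7, and in the 6 WT M1 libraries 22.7 to 40.6, also without overlap. Counts of a 3′ method are not scaled for gene length, and the value serves only to compare groups.

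Within KO M0 cells the value was 11.0, 14.8 and 7.63 with vehicle and 34.3, 44.0 and 17.8 with AP-3-84, so that all treated libraries were above all vehicle libraries. WT M0 vehicle had 54.7, 33.4 and 26.2, and the libraries with high Mt2, WT M2 vehicle library 1 and KO M2 vehicle library 3, had 53.5 and 65.8 where the rest of their groups had 12.5 to 16.3 and 15.5 to 28.8. Over the 12 bone marrow-derived group means, Mt1 and Mt2 had a Pearson r of 0.47 on the log2 CPM scale, so the neighbours on chromosome 8 varied together only in part. These points share the depth and the culture of each group.

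**Figure D4:**
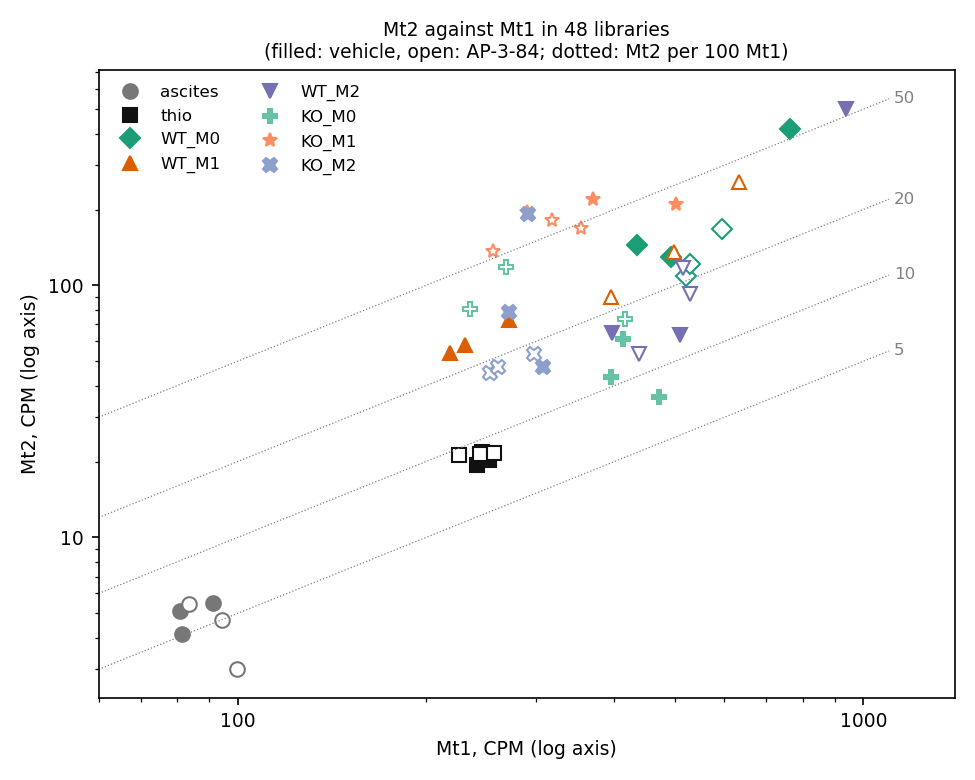
Mt2 against Mt1 in CPM, both axes log, in 48 libraries, filled for vehicle and open for AP-3-84, with symbols by population and dotted lines at fixed Mt2 counts per 100 Mt1 counts. KO M1 libraries lie between 41.8 and 67.7, and ascites libraries between 3.03 and 6.52.

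Other zinc transporters were read from lists of 10 ZnT genes, whose proteins move zinc out of the cytoplasm, and 14 ZIP genes, whose proteins move it in. With AP-3-84, 0 of 5 ZnT genes besides Slc30a1 and 0 of 11 or 12 ZIP genes tested were called by edgeR in 7 of 8 populations. Over these 7, 4 of 35 ZnT and 13 of 79 ZIP values had an unadjusted p under 0.05. KO M0 was the exception: Slc39a13 (log2 fold change 1.56, edgeR adjusted p = 7.91e-05) and Slc39a4 (log2 fold change 1.49, edgeR adjusted p = 0.0102) rose and Slc30a4 fell (log2 fold change -1.27, edgeR adjusted p = 0.0297), in the population with 20.7% of genes called. Without libraries 1 and 2, which leaves 1 treated library, 0.527% of genes were called, the log2 fold changes of these genes were 0.82, 0.55 and -0.77 and none of the 3 was called (edgeR adjusted p 0.429, 0.865 and 0.805). Slc39a4 was also lost without KO M0 AP-3-84 library 1 or 2 alone (edgeR adjusted p 0.0648 and 0.0595), and Slc30a4 without either of these (0.107 and 0.163) or KO M0 vehicle library 1 or 3 (0.0862 and 0.0781).

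Between vehicle groups the transporter counts stand beside the share of all genes called. In WT M2 against WT M0, where 23.4% of all genes were called, Slc30a4, a vesicular zinc transporter gene, rose by 3.01 log2 units (edgeR adjusted p = 2.07e-07), and 2 of 11 ZIP genes were called higher and 2 lower. Slc39a10, a plasma membrane importer gene, was among the higher (log2 fold change 1.67, edgeR adjusted p = 0.000484). In KO M2 against KO M0, where 38% of genes were called, Slc30a4 rose by 2.59 (edgeR adjusted p = 1.01e-06) and Slc39a6 by 1.39 (edgeR adjusted p = 1.91e-06). In KO M1 against KO M0, where 44.5% of genes were called, 5 of 11 ZIP genes were called higher, Slc39a4 by 1.58 (edgeR adjusted p = 0.00262) and Slc39a14 by 1.39 (edgeR adjusted p = 0.011), and 1 lower, Slc39a10 (log2 fold change -2.22, edgeR adjusted p = 1.34e-05). The Slc39a14 call, for an importer gene known to respond to inflammation, was lost without KO M0 vehicle library 3 (edgeR adjusted p = 0.0641).

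In KO M0 against WT M0, where 33.2% of genes were called, 1 of 11 ZIP genes was called higher, Slc39a10 (log2 fold change 1.24, edgeR adjusted p = 0.00561), and 4 lower, with Slc39a4 at a log2 fold change of -1.92 (edgeR adjusted p = 0.000756). Slc39a10 and Slc30a1 were called in the same direction in 3 comparisons, WT M2 and KO M0 against WT M0 and KO M1 against KO M0. Slc30a1 was also called lower in ascites against thio and in KO M1 against WT M1, where Slc39a10 was not called lower. In ascites against thio, 2 of 12 ZIP genes were called each way, where 33.7% of genes were called. Slc39a4 was higher (log2 fold change 3.54, edgeR adjusted p = 4.61e-10), while Slc39a8 and Slc39a11 were lower (log2 fold changes -1.85 and -0.96, edgeR adjusted p = 0.00167 and 3.53e-08). The ZIP median there was 0.12 on the log2 scale against 0.05 over all genes. In KO M1 against WT M1, where 11.6% of genes were called, the 1 ZIP call of 11 was Slc39a1, which was lower (log2 fold change -0.85, edgeR adjusted p = 0.00182).

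**Figure D5:**
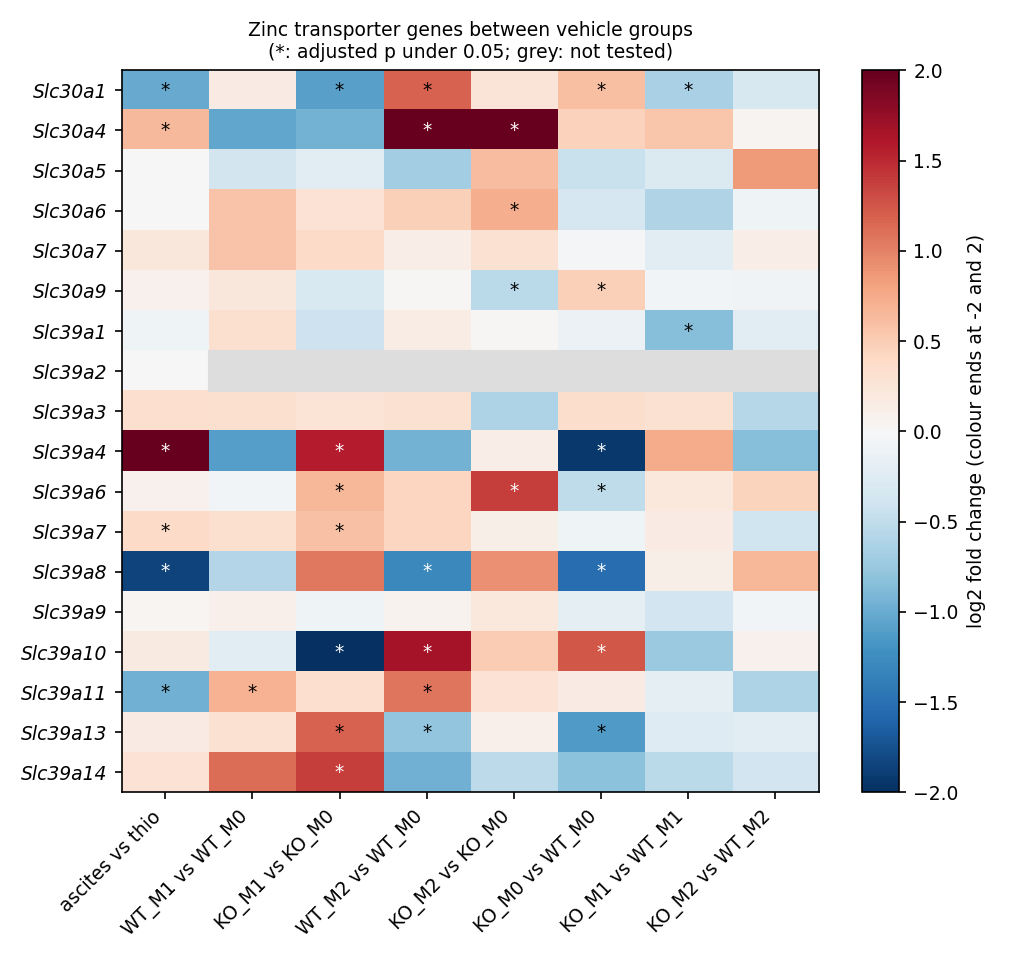
Fitted log2 fold change of Slc30a1 and of the tested ZnT (Slc30a) and ZIP (Slc39a) genes in 8 comparisons of vehicle groups, from blue (lower in the first group) to red (higher), with colour ending at -2 and 2; a star marks an edgeR adjusted p under 0.05 and grey a gene not tested. Slc39a10 and Slc30a1 have the same colour and a star in WT M2 and KO M0 against WT M0 and in KO M1 against KO M0. Of the pair, only Slc30a1 is starred as lower in ascites against thio and in KO M1 against WT M1.

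Of 6 other genes listed as MTF-1 targets, Slc39a10 included, 2 rose with AP-3-84 in both peritoneal populations, where Mt1 and Mt2 were not called. Of all genes, 1.79% were called in ascites and 4.32% in thio, in either direction. Slc40a1, the gene of the iron exporter ferroportin, rose by 1.49 log2 units in ascites and 1.00 in thio (edgeR adjusted p = 9.57e-06 and 0.000392). Gclc, which encodes the catalytic subunit of glutathione synthesis and is also a target of NRF2, rose by 0.93 and 0.78 (edgeR adjusted p = 9.97e-06 and 6.84e-05). All 4 of these calls were lost in the fit of all 48 libraries. The list's median was 0.18 in ascites and 0.21 in thio, against 0.00 and 0.03 over all genes.

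In bone marrow-derived cells Gclc rose in WT M0 by 1.89 (edgeR adjusted p = 0.00642), a call lost without WT M0 AP-3-84 library 1 or WT M0 vehicle library 1 or 3 (edgeR adjusted p 0.0777, 0.0646 and 0.0826). The hypoxia-responsive gene Ndrg1 rose in KO M0 by 3.86 (edgeR adjusted p = 7.67e-07), and by 2.81 without AP-3-84 libraries 1 and 2 (edgeR adjusted p = 0.000871). Of 8 copper genes tested in WT M2, the importer gene Slc31a1 was the 1 called (log2 fold change -0.62, edgeR adjusted p = 0.0223), where 1.21% of all genes were called. This call was lost without WT M2 AP-3-84 library 1, 2 or 3 (edgeR adjusted p 0.0912, 0.155 and 0.0594) or WT M2 vehicle library 1 (0.194).

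Of 10 oxidative and heat shock genes, 10 rose with AP-3-84 in ascites (1.79% of all genes called), 9 in thio (4.32%), 5 in KO M0 (20.7%) and 2 each in WT M0, WT M2 and KO M2 (0.144%, 1.21% and 0.0509%), with 0 in WT M1 and KO M1 by edgeR, where 7 and 0 had an unadjusted p under 0.05. In ascites the co-chaperone gene Hsph1 rose by 2.13 (edgeR adjusted p = 1.92e-10), and in thio the cystine transporter gene Slc7a11 by 1.72 (edgeR adjusted p = 3.91e-07). The list's median log2 fold change was 1.13 in ascites and 1.37 in thio. In WT M1, where Mt1 and Mt2 were higher without a call, the list's median was 0.89 against 0.01 over all genes, with 0 called. In KO M1 it was 0.02 against -0.02. This list, like the others, was written with earlier results of these data known, so its counts are not independent support.

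Between vehicle groups, 3 of the 6 other MTF-1 targets were called lower in ascites than in thio, with log2 fold changes of -0.995 for Ndrg1, -0.99 for Slc40a1 and -0.72 for Gclc, the direction of Mt1, Mt2 and Slc30a1. Of all genes, 13.4% were called lower there and 33.7% in either direction. The Slc40a1 call was lost in the fit of all 48 libraries. The list's median was -0.37 against 0.05 over all genes. Slc40a1 was lower in M1 than in M0 of both genotypes, with a log2 fold change of -2.56 in WT (edgeR adjusted p = 0.0278) and -3.97 in KO (edgeR adjusted p = 0.000114). The WT call was lost without WT M0 vehicle library 1 or 3 (edgeR adjusted p 0.0662 and 0.0626) or WT M1 vehicle library 1, 2 or 3 (0.0864, 0.0708 and 0.0934). In KO M0 against WT M0, where Mt2 was lower, Slc40a1 was higher by 2.87 (edgeR adjusted p = 0.00241), 5 of 8 copper genes were called lower where 33.2% of genes were called in either direction, with Slc31a2 at -2.47 (edgeR adjusted p = 3.23e-07), and 0 higher. In that comparison 5 of 10 genes of the LPS and interferon response were called lower and 0 higher, and the part of this in the Mt2 value was not tested.

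The genes with the pattern most like each member were taken from the Pearson r of log2 CPM over the 12 bone marrow-derived group means among 8124 genes. For Slc30a1 these were Tep1 (r = 0.978), Traf5 (0.968), March6 (0.953), Slc39a10 (0.953) and S100a1 (0.952), so a zinc importer was among the 5. For Mt1 they were Chchd5 (r = 0.851), Bbc3 (0.827), Ecm1 (0.820), Uap1l1 (0.814) and Ppp2r5d (0.802), of which Bbc3 is a known p53 target. For Mt2 they were Prpf4 (r = 0.899), Troap (0.879), Myo6 (0.847), Pmf1 (0.843) and Nup214 (0.841). Among the members, Slc30a1 had an r of -0.80 with Mtf1 and -0.66 with Mt2. These 12 points share cultures within genotype and state, and the values are descriptions.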

How the data were processed

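The authors deposited 1 table of counts per Ensembl gene for 48 libraries, made, per the labels' protocols, with the Lexogen QuantSeq FWD 3′ kit from 100 ng of RNA and sequenced as 75-base single reads. The submitters' processing notes name RSEM, Bowtie2 and DESeq2 without versions. Not given in the sources used here: the genome build, the annotation and the use of strand. Counts were analysed as deposited in edgeR 4.0.16 (R 4.3.3) with TMM scaling, filterByExpr by group and the robust quasi-likelihood test, 1 mean per group, in 12 peritoneal libraries (16955 genes tested) and 36 bone marrow-derived libraries (11779 genes). Tests were two-sided, adjusted by Benjamini-Hochberg over all genes of a comparison, and called at an adjusted p under 0.05. There were 24 comparisons, of which 2, on how the M1 and M2 changes differ between genotypes, were added after the data had been seen. The 4 genes were always named, other listed genes by the largest called changes, and look-alikes by the 5 highest r. Members and lists were chosen with earlier results of these data known. Alternatives were DESeq2 1.42.0, other scaling, no filter, other sets of libraries, a replicate block and leaving out each library. The code was tested on simulated counts. CPM values carry counting error as well as the spread between libraries.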

Additional observations from a re-analysis of the deposited data

Results flagged for a closer look

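In 4 cases the change of a gene with polarization differed between WT and p53 KO vehicle libraries by a test of the difference itself. These comparisons were added after the opposite values had been seen, so they are not independent support. For M1 against M0, the KO minus WT difference was 4.06 log2 units for Mt2, -1.25 for Slc30a1 and 1.09 for Mt1. These are 3 of the 4 members, where 20.7% of 11779 genes were called. For M2 against M0, the difference was -0.93 log2 units for Slc30a1. That is 1 of the 4 members, where 27.1% of genes were called and 13.2% lower, so this count is near the share of all genes.

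Over the other settings tried, the Mt2 difference ranged from 3.31 to 4.35 log2 units with an edgeR adjusted p of at most 0.0099, and the M1 difference of Slc30a1 from -1.47 to -1.01 with at most 0.0118. The Mt1 difference ranged from 0.81 to 1.33 (edgeR adjusted p 0.000256 to 0.109), and the M2 difference of Slc30a1 from -1.13 to -0.75 (edgeR adjusted p 0.00287 to 0.0558). WT and KO libraries may also differ in culture, which cannot be told apart from genotype here.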

How the results depend on the processing

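Over 96 gene values and their alternatives, 1211 of 1351 values kept their direction and call, 90 lost a call, 44 gained one and 6 changed sign, and the cause was not tested. The sign changes were all of values not called: with 1 library left out the log2 fold change ran from -0.35 to 0.024 for Mt2 in ascites with AP-3-84, from -0.070 to 0.021 for Mt1 in thio with AP-3-84, from -1.68 to 0.45 for Mt2 in WT M2 with AP-3-84 (0.45 also without both M2 vehicle libraries that stand apart, an alternative added after seeing the data), from -0.038 to 0.14 for Mtf1 in ascites against thio and from -1.74 to 0.71 for Mt2 in KO M2 against WT M2. The share of all genes called moved with the settings too. In KO M2 against WT M2 it ran from 0.0686% (only the groups compared) to 7.58% (without KO M2 vehicle library 1). In KO M2 against KO M0 it ran from 18.4% to 38.1%, and for AP-3-84 in WT M1 from 0.00827% to 1.08%. Whether the counts of members moved beyond this share was not tested. The number of the 4 genes called moved as follows. DESeq2 called 3 in KO M1 against WT M1 and in WT M1 against WT M0, and 1 each for AP-3-84 in WT M1 and KO M2. With all 48 libraries in 1 fit, 0 were called for AP-3-84 in thio, 3 in KO M1 against WT M1 and in KO M0 against WT M0, 2 for the genotype difference of the M2 change, and 1 each in KO M2 against KO M0, for AP-3-84 in WT M1 and KO M2 and for the KO M2 minus WT M2 response. With no filter on low counts, the count was 2 in KO M1 against WT M1, KO M2 against KO M0, KO M2 against WT M2, for AP-3-84 in WT M1 and KO M2, for the KO M1 minus WT M1 response and for the genotype difference of the M2 change, and 1 in KO M0 against WT M0, for AP-3-84 in WT M0, WT M2 and KO M0, and for the responses KO M0 minus WT M0, M1 minus M0 and M2 minus M0. With only the groups compared, it was 2 in KO M1 against WT M1, 0 in KO M2 against WT M2, and 1 in KO M2 against KO M0, in WT M1 against WT M0 and for AP-3-84 in WT M1. With total-count scaling it was 2 in KO M1 against WT M1 and for the genotype difference of the M2 change. Without the M2 libraries that stand apart it was 0 in KO M2 against WT M2, and 2 in WT M2 against WT M0 and for the genotype difference of the M2 change. Leaving out 1 library at a time gave 0 to 1 for AP-3-84 in KO M0 and KO M2, in KO M1 against WT M1, in KO M2 against WT M2 and for the KO M2 minus WT M2 response, 1 to 2 in KO M0, WT M1 and WT M2 against WT M0, 2 to 3 for the genotype difference of the M1 change and 0 to 2 for that of the M2 change.

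The replicate numbers were not taken as pairs: same-numbered libraries of a population had a correlation of deviations from -0.33 to 0.38, with 4 of 24 over 0.1. With the replicate number as a block, 1 gene was called in WT M1 against WT M0, Mt2 having an edgeR adjusted p of 0.0521, and of the other genes Slc30a4 in ascites against thio (edgeR adjusted p = 0.0521) and Slc31a1 with AP-3-84 in WT M2 (edgeR adjusted p = 0.099) lost their calls. Total-count scaling moved the median of all genes by up to 0.301 log2 units, in WT M1 against WT M0, by 0.272 in KO M1 against WT M1, and by 0.143 in ascites against thio. The share of all genes called in KO M1 against KO M0 was 44.5% with the filter and 21.7% without it. The bone marrow-derived libraries hold fewer counts than the peritoneal ones, and their intervals are wider.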
